A study of Mus musculus with 4 samples.

Results

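The genes described here encode the subunits of the mitochondrial respiratory chain and ATP synthase, with the assembly factors that share their symbols. They are all genes whose symbol starts with Nduf, Sdha, Sdhb, Sdhc, Sdhd, Uqcr, Cox4, Cox5, Cox6, Cox7, Cox8 or Atp5, chosen by symbol alone. Of 18193 genes that had a probe set of their own on the array, 94 met this rule. Each was represented by the brightest of the probe sets naming only that gene. In all, 92 of the 94 exceeded 6.20, the median of all deposited values, on at least 1 array, and so did 12439 genes overall. The exceptions were Cox7b2, an isoform of complex IV, and the probe set that names Ndufb4 alone.

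The cells were naive CD4+ T cells, taken from C57BL/6J mice with the OT2 T cell receptor transgene and sorted out of spleen and lymph nodes as CD44-negative and CD62L-positive. STAT3-deficient cells came from mice with floxed stat3 and CD4-Cre, and STAT3 wild-type cells from mice with floxed stat3 without Cre. STAT5-deficient cells had floxed stat5 and CD4-Cre, and STAT5 wild-type cells floxed stat5 without Cre. CD4-Cre deletes floxed sequence during T cell development, before the activation used here. For both deficient samples the genotype label names the Cre but also says wild type, against the sample titles, from which the groups were taken. All cultures received anti-CD3, anti-CD28, 20 ng/ml IL-6, 2 ng/ml TGF-beta and anti-IL-4 for 72 h, conditions that favour Th17 differentiation. The STAT3 pair was cultured with an antibody to IL-2 (10 ug/ml) and the STAT5 pair with added IL-2 (100 IU/ml). Floxed locus, IL-2 condition and pair of cultures therefore cannot be told apart between the pairs. Each group was 1 culture on 1 array, so no difference below has a replicate check, a standard error or a p-value.

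The targeted genes checked the labels. Stat3 read 9.93 in STAT3-deficient cells, against 12.87 in STAT3 wild-type cells. Stat5a read 5.91 in STAT5-deficient cells, against 10.92 in STAT5 wild-type cells, and Stat5b 6.09 against 11.33. All 6 CD4 T cell markers measured exceeded 6.20, as did 2 of 2 CD8, 2 of 4 B cell, 3 of 6 myeloid, 0 of 2 NK and 0 of 3 erythroid markers. All 3 Th17 markers did so too. Il17a read 9.23 in STAT3-deficient cells, against 14.12 in STAT3 wild-type cells, and Rora 10.69 against 12.54. Ccr6 went the other way, at 12.41 against 11.90. Without STAT5 all 3 were higher. Array medians over all probe sets ran from 6.10 in STAT3-deficient cells to 6.34 in STAT3 wild-type cells, with STAT5-deficient cells at 6.21 and STAT5 wild-type cells at 6.15. The excess of 3' over 5' control probe sets ran from -0.08 to 0.04 for Gapdh and from 0.13 to 0.23 for Actb, both on the log2 scale.

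The respiratory chain passes electrons from NADH through complex I, or from succinate through complex II, to ubiquinone, then through complex III and cytochrome c to complex IV, which reduces oxygen. Complexes I, III and IV pump protons out of the matrix, and ATP synthase, called complex V, uses their return to make ATP. Most subunits are encoded in the nucleus and are built into the complexes with the help of assembly factors. T cells enlarge their mitochondria when they are activated, and STAT3 has itself been found in mitochondria, where it was reported to bind the complex I subunit GRIM-19 (Ndufa13). IL-2 signals mainly through STAT5.

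By class, the members past the filter comprised 35 of 36 complex I genes, 4 of 4 complex II genes, 8 of 8 complex III genes, 16 of 17 complex IV genes, 17 of 17 complex V genes and 12 of 12 assembly factors. All differences below are on the log2 scale, where 1 is 2-fold, and smaller ones were counted from 0.32 in size. Members were bright on these arrays: 75 of the 92 (81.5%) lay in the top 25% of genes by mean value, which held 3110 genes. Probe set brightness depends on the probes as well as on the transcript, so levels are compared only within a gene. On bulk RNA, fewer cells of a type and less RNA per cell cannot be told apart.

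The promoters of nuclear respiratory genes are known for sites of NRF1 and of the ETS factor GABPA, which bind many of these promoters. RefSeq promoter windows (GRCm38.p6, 250 bases before to 50 after the gene start) were matched by symbol for 78 of the 94 members. The letters of the NRF1 motif (GCGC and GCGC with 2 bases of any kind between them, either strand) stood in a window of 21 of these 78 genes (26.9%), against 14.4% of 10072 genes compared and 7.0% of all 27025 genes with a window. Those of the GABPA/ETS site (CCGGAAG) stood in 22 (28.2%), against 19.2% and 9.93%. The YY1 motif (AANATGGC) was present in 18 (23.1%), against 9.65% and 6.96%. The STAT motif (TTCNNNGAA) was present in 5 (6.41%), against 8.17% and 9.55%, and the 5 were Atp5d, Atp5o, Atp5pb, Ndufa8 and Ndufb6. No matches of different motifs overlapped. The 4 windows below, 5′ to 3′ on the gene's strand and ending at the base before the gene start, show 1 member for each motif and 1 subunit of complex II. Motif letters are in capitals.
Ndufs5: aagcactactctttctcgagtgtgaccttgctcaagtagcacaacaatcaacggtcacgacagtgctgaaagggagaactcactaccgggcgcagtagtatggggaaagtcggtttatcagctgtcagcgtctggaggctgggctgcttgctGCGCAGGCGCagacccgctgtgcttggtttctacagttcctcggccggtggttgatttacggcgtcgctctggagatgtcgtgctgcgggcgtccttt
Ndufb6: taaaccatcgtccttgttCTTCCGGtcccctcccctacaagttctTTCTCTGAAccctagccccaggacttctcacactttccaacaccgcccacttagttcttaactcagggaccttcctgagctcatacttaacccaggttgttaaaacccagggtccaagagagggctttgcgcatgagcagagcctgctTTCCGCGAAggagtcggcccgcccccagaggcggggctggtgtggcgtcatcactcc
Ndufs8: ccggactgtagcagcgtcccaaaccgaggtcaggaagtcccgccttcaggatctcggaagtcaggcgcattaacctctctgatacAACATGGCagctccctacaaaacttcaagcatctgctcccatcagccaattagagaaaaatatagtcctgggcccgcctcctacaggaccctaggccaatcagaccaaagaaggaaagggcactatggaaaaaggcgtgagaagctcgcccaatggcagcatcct
Sdhd: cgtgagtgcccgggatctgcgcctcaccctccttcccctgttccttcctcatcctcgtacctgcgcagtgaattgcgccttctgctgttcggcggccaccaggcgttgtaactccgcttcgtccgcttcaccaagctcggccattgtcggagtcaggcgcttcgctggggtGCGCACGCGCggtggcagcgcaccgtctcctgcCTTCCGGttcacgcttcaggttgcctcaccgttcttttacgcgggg

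The Ndufs5 window is chr4:123718187-123718436, minus strand, and holds an NRF1 match 98 to 89 bases before the start. The Ndufb6 window is chr4:40279422-40279671, minus strand. It holds the GABPA/ETS motif on the opposite strand at 232 to 226 bases before the start, and STAT motifs at 205 to 197 and at 57 to 49. The Ndufs8 window is chr19:3912775-3913024, minus strand, with a YY1 match at 165 to 158. The Sdhd window is chr9:50603850-50604099, minus strand, with an NRF1 match at 79 to 70 and the GABPA/ETS motif on the opposite strand at 46 to 40. These matches describe letters in a window and not bound sites.

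In STAT3-deficient cells the respiratory chain stood close to its wild-type level while genes in general read lower. The median difference of the 92 members, STAT3-deficient minus STAT3 wild type, was -0.016, while the median over all 12439 genes was -0.20 and that over the top 25% was -0.14. Between quartiles, members ran from -0.16 to 0.10 and all genes from -0.49 to 0.07. No member was 2-fold higher, where 2.85% of all genes were, and none was 2-fold lower, where 7.24% were. At 1.5-fold, 0 members were higher against 5.66% and 3 were lower against 19.2%. At 0.32 or more, 5 members were higher (Uqcr10, Atp5g1, Ndufa4, Ndufaf8 and Ndufa5) against 11.1% of all genes. In the other direction 12 were lower against 38.1% of all genes: Cox7a1, Cox8b, Ndufa4l2, Ndufb11, Cox8c, Ndufb6, Ndufb1, Sdhaf3, Ndufa6, Atp5pb, Ndufv3 and Ndufa1. In all, 44 of 92 members lay above 0, against 30.7% of all genes. The shift of all genes below 0 moves with the lower median of the STAT3-deficient array, and its part in these counts was not tested. With each array centred on its median, the member median was 0.23 and that of all genes 0.04, with 27 members higher against 24.2% of all genes and 3 lower against 20.2% at 0.32 or more. After centring by intensity (loess) the member median was 0.12, with 15 higher against 21.3% and 6 lower against 21.6%. The sign of the median therefore depended on the scaling, whereas its place above the median of all genes did not in these settings.

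**Figure D1:**
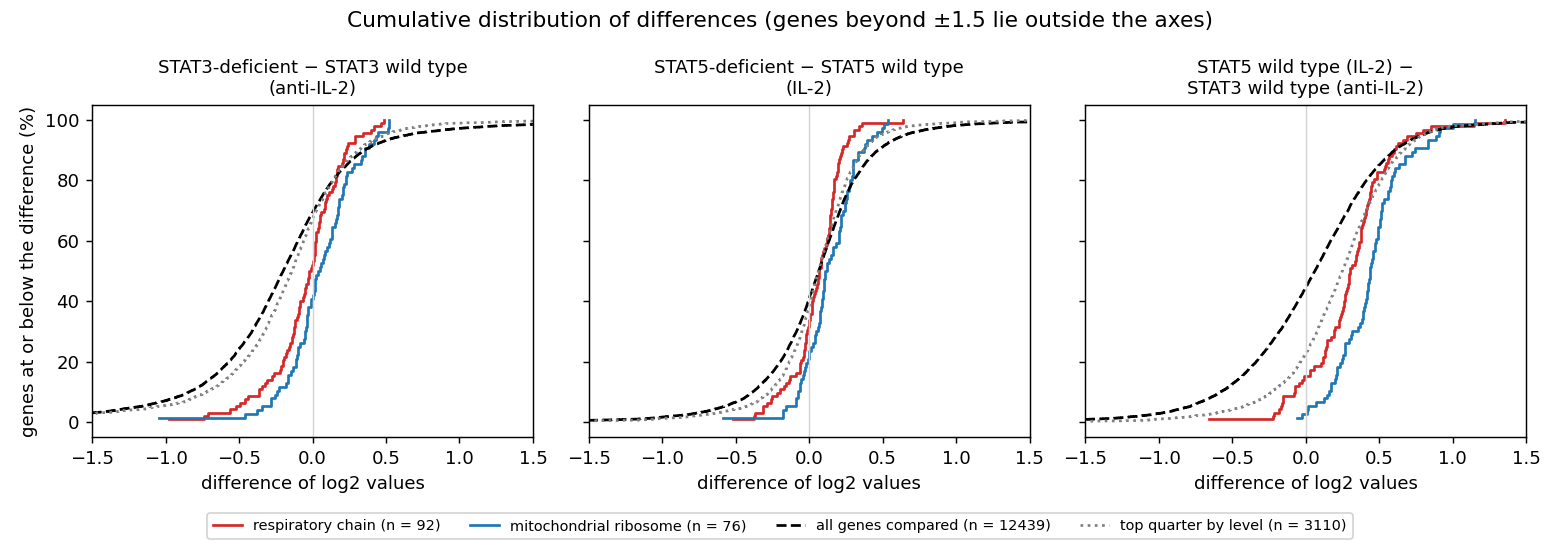
Cumulative share of genes (percent, vertical axis) at or below each difference of log2 values (horizontal axis) in the 3 comparisons, for 92 respiratory chain members, 76 mitochondrial ribosome genes, all 12439 genes compared and the 3110 in the top 25% by level. The members' curves are steeper than that of all genes around a median of -0.016 without STAT3 and 0.068 without STAT5, and lie to its right around 0.30 between the wild-type cultures.

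Within complex I, the entry point for electrons from NADH, the core subunits differed little without STAT3. Ndufs1, which carries iron-sulphur clusters, read 10.37 in STAT3-deficient cells, against 10.18 in STAT3 wild-type cells. Ndufv1, the subunit that binds NADH, read 11.11 against 11.10, and its partner Ndufv2 12.27 against 12.31. The differences of the core subunits Ndufs1, Ndufs3, Ndufs7, Ndufs8, Ndufv1 and Ndufv2 ran from -0.09 (Ndufs3) to 0.21 (Ndufs8). Ndufa13, the STAT3-binding subunit, named after its values were seen, read 12.04 in STAT3-deficient cells, against 11.86 in STAT3 wild-type cells, a difference of 0.18.

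The larger differences in complex I were in accessory subunits, which surround the core and help its assembly. Ndufb11, an X-linked membrane-arm subunit, read 12.21 in STAT3-deficient cells, against 12.76 in STAT3 wild-type cells (difference -0.56). Its other probe sets gave -0.35 and -0.41 in that comparison. Ndufb11 was lower without STAT5 as well, at 12.53 in STAT5-deficient cells against 12.90 in STAT5 wild-type cells (difference -0.37), with other probe sets at -0.46 and -0.48. All its probe sets thus read lower in both deletions. Ndufb6, another membrane-arm subunit, whose window held 2 STAT motifs, read 11.45 in STAT3-deficient cells, against 11.95 in STAT3 wild-type cells (difference -0.49), and its second probe set gave -0.37. Without STAT5 the value was 12.56 in STAT5-deficient cells, against 12.49 in STAT5 wild-type cells. Over the 5 members with a STAT motif the median difference without STAT3 was -0.27, against 0.01 over the 71 others with a window. Without STAT5 the 2 medians were 0.07 and 0.08, and between the wild-type cultures 0.30 and 0.29. These medians rest on few genes.

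In the other direction, Ndufa4 read 12.31 in STAT3-deficient cells, against 11.89 in STAT3 wild-type cells (difference 0.42). It was first assigned to complex I and is now counted with complex IV. Ndufa5, an accessory subunit, read 10.37 in STAT3-deficient cells, against 10.03 in STAT3 wild-type cells. The STAT5-deficient value was 10.97, against 10.63 in STAT5 wild-type cells. Both differences were 0.34, and its second probe set gave 0.30 and 0.20. The assembly factor Ndufaf8, which stabilises Ndufaf5 in human cells, read 10.39 in STAT3-deficient cells, against 9.99 in STAT3 wild-type cells. The STAT5-deficient value was 10.64, against 10.28 in STAT5 wild-type cells. Ndufaf8 was the highest assembly factor in both deletions, at 0.40 and 0.36, although its dimmer probe set gave 0.00 in size and 0.15.

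Complex II, succinate dehydrogenase, links the chain to the citric acid cycle. Sdha, the flavoprotein that oxidises succinate, read 11.65 in STAT3-deficient cells, against 11.62 in STAT3 wild-type cells. The STAT5-deficient value was 12.05, against 11.88 in STAT5 wild-type cells. Sdhb, the iron-sulphur subunit, read 11.97 against 12.16 in the STAT3 pair and 12.41 against 12.31 in the STAT5 pair. Sdhc, a membrane anchor, read 10.43 against 10.54 and 11.20 against 11.00, and Sdhd, the other anchor, 11.42 against 11.32 and 11.57 against 11.56. The brightest probe set of no complex II subunit differed by more than 0.20 in size in either deletion. Without STAT3, the second probe sets of Sdhc and Sdhd gave -0.42 and -0.24, and the other probe sets of Sdha past the filter -0.02 and, near background, -0.70. Without STAT5 these gave 0.07 and 0.17, and 0.27 and 0.06, so dimmer probe sets went past that size. The assembly factor Sdhaf3 was lower in both, at 7.48 in STAT3-deficient cells against 7.92 in STAT3 wild-type cells. The STAT5-deficient value was 8.05, against 8.36 in STAT5 wild-type cells.

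Complex III passes electrons from ubiquinol to cytochrome c. Its core proteins Uqcrc1 and Uqcrc2 differed by 0.16 and -0.20 without STAT3, and the Rieske iron-sulphur protein Uqcrfs1 by -0.02. The second probe set of Uqcrc2 gave 0.002. Uqcr10, a small subunit, had the largest positive difference of any member without STAT3. It read 11.83 in STAT3-deficient cells, against 11.34 in STAT3 wild-type cells (difference 0.49), and its other probe sets gave 0.50 and 0.53. In the STAT5 pair it read 11.92 in STAT5-deficient cells, against 11.79 in STAT5 wild-type cells.

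Complex IV, cytochrome c oxidase, contains subunits with alternative isoforms of the heart and muscle, lung or testis. The ubiquitous isoforms were close to their wild-type values without STAT3: Cox4i1 read 13.18 in STAT3-deficient cells, against 13.28 in STAT3 wild-type cells. Cox5a read 13.40 against 13.42, Cox5b 13.40 against 13.41, Cox6a1 14.10 against 14.23, Cox6b1 13.05 against 13.14, Cox7a2 13.41 against 13.30 and Cox8a 12.50 against 12.48. The other probe sets of Cox5a gave -0.63 and -0.39, so its brightest probe set stood apart from them. Cox7a2l, which joins complexes III and IV into supercomplexes and is shortened in C57BL/6 mice, read 11.95 against 12.23. The largest negative difference of any member was in the muscle isoform Cox7a1, which read 6.33 in STAT3-deficient cells, against 7.30 in STAT3 wild-type cells (difference -0.97). Its value in STAT5-deficient cells was 7.53, against 7.23 in STAT5 wild-type cells. Cox8b, also a muscle isoform, read 5.77 in STAT3-deficient cells, against 6.51 in STAT3 wild-type cells, and the testis isoform Cox8c 8.15 against 8.67. The values of Cox7a1 and Cox8b, near 6.20, lie in the range of probe sets with little signal. Those of Cox8c were higher, and its second probe set gave -0.32.

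The 7 tissue-restricted isoforms past the filter (Cox4i2, Cox6a2, Cox6b2, Cox7a1, Cox8b, Cox8c and Ndufa4l2) had a median difference of -0.52 without STAT3, where the 73 ubiquitous subunits stood at -0.01. Their values ran from 5.77 to 8.67 over the 4 arrays. Ndufa4l2, a hypoxia-induced relative of Ndufa4, read 6.66 in STAT3-deficient cells, against 7.38 in STAT3 wild-type cells (difference -0.71). It read 6.67 in STAT5-deficient cells, against 6.71 in STAT5 wild-type cells, so STAT3 wild-type cells stood above the other 3 arrays. Cox4i2, a lung isoform also induced by hypoxia, read 6.72 in STAT3-deficient cells, against 6.94 in STAT3 wild-type cells. Its STAT5-deficient value was 7.09, against 6.78 in STAT5 wild-type cells (difference 0.31).

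Complex V contains a rotor, a catalytic head and a stalk. The catalytic subunits differed by 0.17 (Atp5a1) and -0.20 (Atp5b) without STAT3. Atp5a1 read 13.29 in STAT3-deficient cells, against 13.12 in STAT3 wild-type cells, and Atp5b 13.43 against 13.63. The 3 genes for the c-ring of the rotor, Atp5g1, Atp5g2 and Atp5g3, encode the same mature protein. Atp5g1 read 11.20 in STAT3-deficient cells, against 10.74 in STAT3 wild-type cells (difference 0.46), while Atp5g2 and Atp5g3 differed by 0.16 and 0.03. Atp5pb, of the peripheral stalk, read 12.17 in STAT3-deficient cells, against 12.54 in STAT3 wild-type cells (difference -0.37), and its second probe set gave -0.09.

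**Figure D2:**
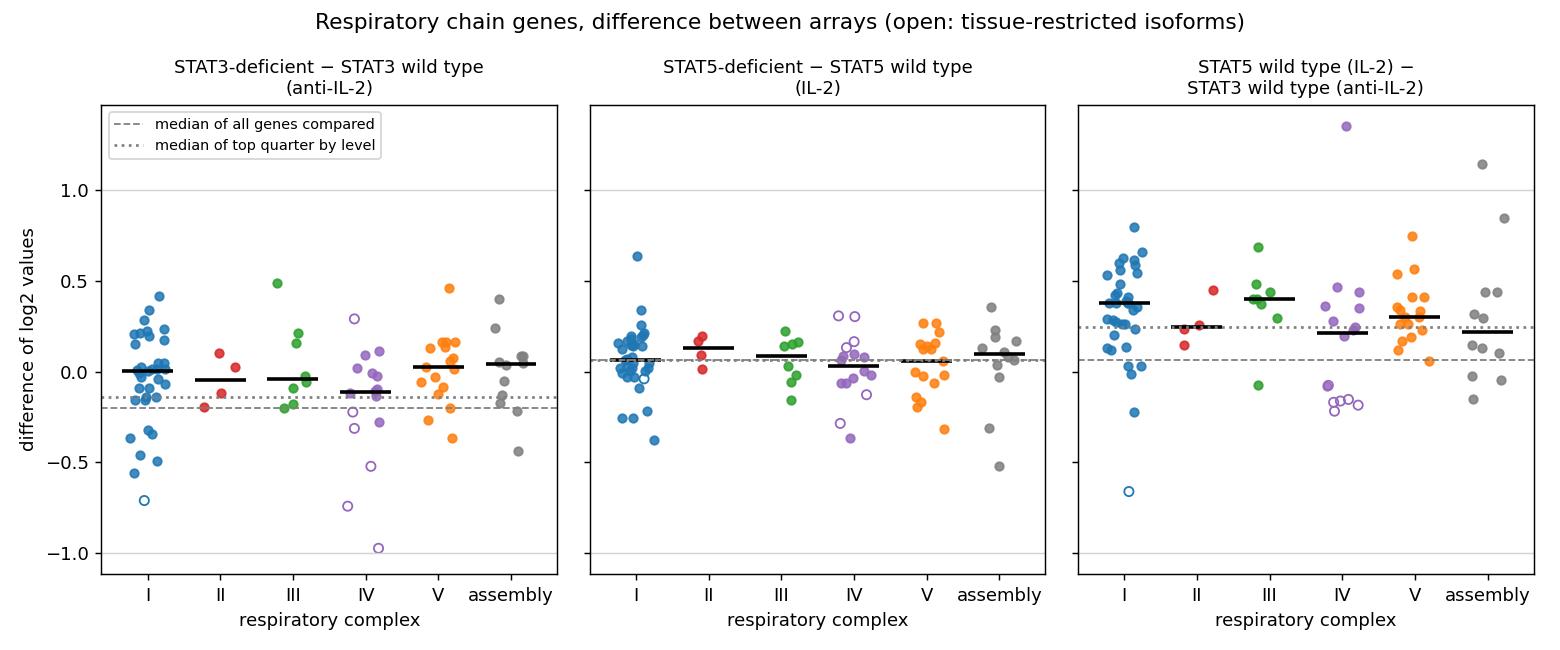
Difference of log2 values (vertical axis) of each member past the filter (points, open for tissue-restricted isoforms) by respiratory complex (horizontal axis) in the 3 comparisons, with black bars at class medians and dashed and dotted lines at the medians of all genes and of the top 25% by level. Without STAT3 the lowest point is Cox7a1 at -0.97 and without STAT5 the highest is Ndufb1 at 0.64, while Cox7c at 1.36 and Ndufaf6 at 1.15 lead between the wild-type cultures.

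In STAT5-deficient cells the members lay within a narrow range around their values in STAT5 wild-type cells. The median difference, STAT5-deficient minus STAT5 wild type, was 0.068, beside 0.065 over all genes and 0.062 over the top 25%. Between quartiles, members ran from -0.03 to 0.16 and all genes from -0.14 to 0.25. No member was 2-fold higher, where 1.86% of all genes were, and none was 2-fold lower, where 1.74% were. At 1.5-fold, 1 member was higher against 6.43% and 0 were lower against 5.18%. At 0.32 or more, 3 members were higher against 18.7% of all genes, and 3 were lower against 12.9%. In all, 62 of 92 lay above 0, against 59.4% of all genes.

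The 3 members past 0.32 upward without STAT5 were Ndufb1, Ndufaf8 and Ndufa5, and the 3 downward were Ndufaf6, Ndufb11 and Cox7c. Ndufb1, a small membrane-arm subunit, read 10.10 in STAT5-deficient cells, against 9.46 in STAT5 wild-type cells (difference 0.64), and 8.88 in STAT3-deficient cells, against 9.34 in STAT3 wild-type cells (difference -0.46). STAT5-deficient cells stood highest of the 4 arrays for it and STAT3-deficient cells lowest. Ndufaf6, an assembly factor that acts early on the membrane arm, read 9.13 in STAT5-deficient cells, against 9.65 in STAT5 wild-type cells (difference -0.52). Cox7c, a small complex IV subunit, read 7.96 in STAT5-deficient cells, against 8.32 in STAT5 wild-type cells (difference -0.37), and Atp5mpl, a small ATP synthase protein, 11.43 against 11.75 (difference -0.31). Of the core genes, Ndufs7 and Uqcrfs1 differed by 0.21 and 0.23, and the catalytic Atp5a1 and Atp5b by 0.16 and 0.00 in size. The second probe set of Ndufs7 gave -0.08. With each array centred on its median 1 member was higher against 14.2% of all genes and 6 lower against 16% at 0.32 or more. By loess 1 was higher against 14.0% and 7 lower against 16.2%.

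Setting the deletions side by side, 52 of 92 members (56.5%) had the same sign in both, against 50.1% of all genes. Across the 92 members Pearson's r between the differences was 0.22 and Spearman's rho 0.29, against 0.08 and 0.11 across 12439 genes. Genes are not independent replicates, and these coefficients only describe the arrays. Ndufb1 was the 1 member past 0.32 in opposite directions, where 8.94% of all genes were.

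In the deposited values the members differed more between the wild-type cultures than in either deletion. After loess centring this did not hold, with a member median of 0.12 without STAT3 and 0.089 here. In STAT5 wild-type cells, cultured with IL-2, the members stood higher than in STAT3 wild-type cells, cultured with anti-IL-2, by a median of 0.30, and 78 of 92 lay above 0. Over all genes the median was 0.062 and 55.3% lay above 0, but over the top 25% by level the median was 0.25 and 77.3% lay above 0. A 2-fold difference was passed upward by 2 members, Cox7c and Ndufaf6, beside 2.35% of all genes, and downward by none, beside 2.95%. At 1.5-fold, 11 were higher against 10.8% and 1 was lower against 9.97%. At 0.32 or more, 44 members were higher against 26.8% of all genes and 40.8% of the top 25%, and 1 was lower against 21% and 7.4%. After loess centring, which removes what genes of like brightness share, the member median was 0.089, with 13 higher beside 20.7% of all genes. With each array centred on its median it was 0.49, where all genes stood at 0.25, with 70 higher beside 43.6% of all genes. Without centring, the member median of 0.30 stood near the 0.25 of the top 25% by level. After loess centring 64 of 92 members (69.6%) lay above 0, against 50.4% of all genes and 52.2% of the top 25%. At 0.32 or more, 3 members were then lower, against 19.9% of all genes. How much of the higher level belongs to bright genes in general was not tested. This comparison uses the control arrays of both deletions.

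**Figure D3:**
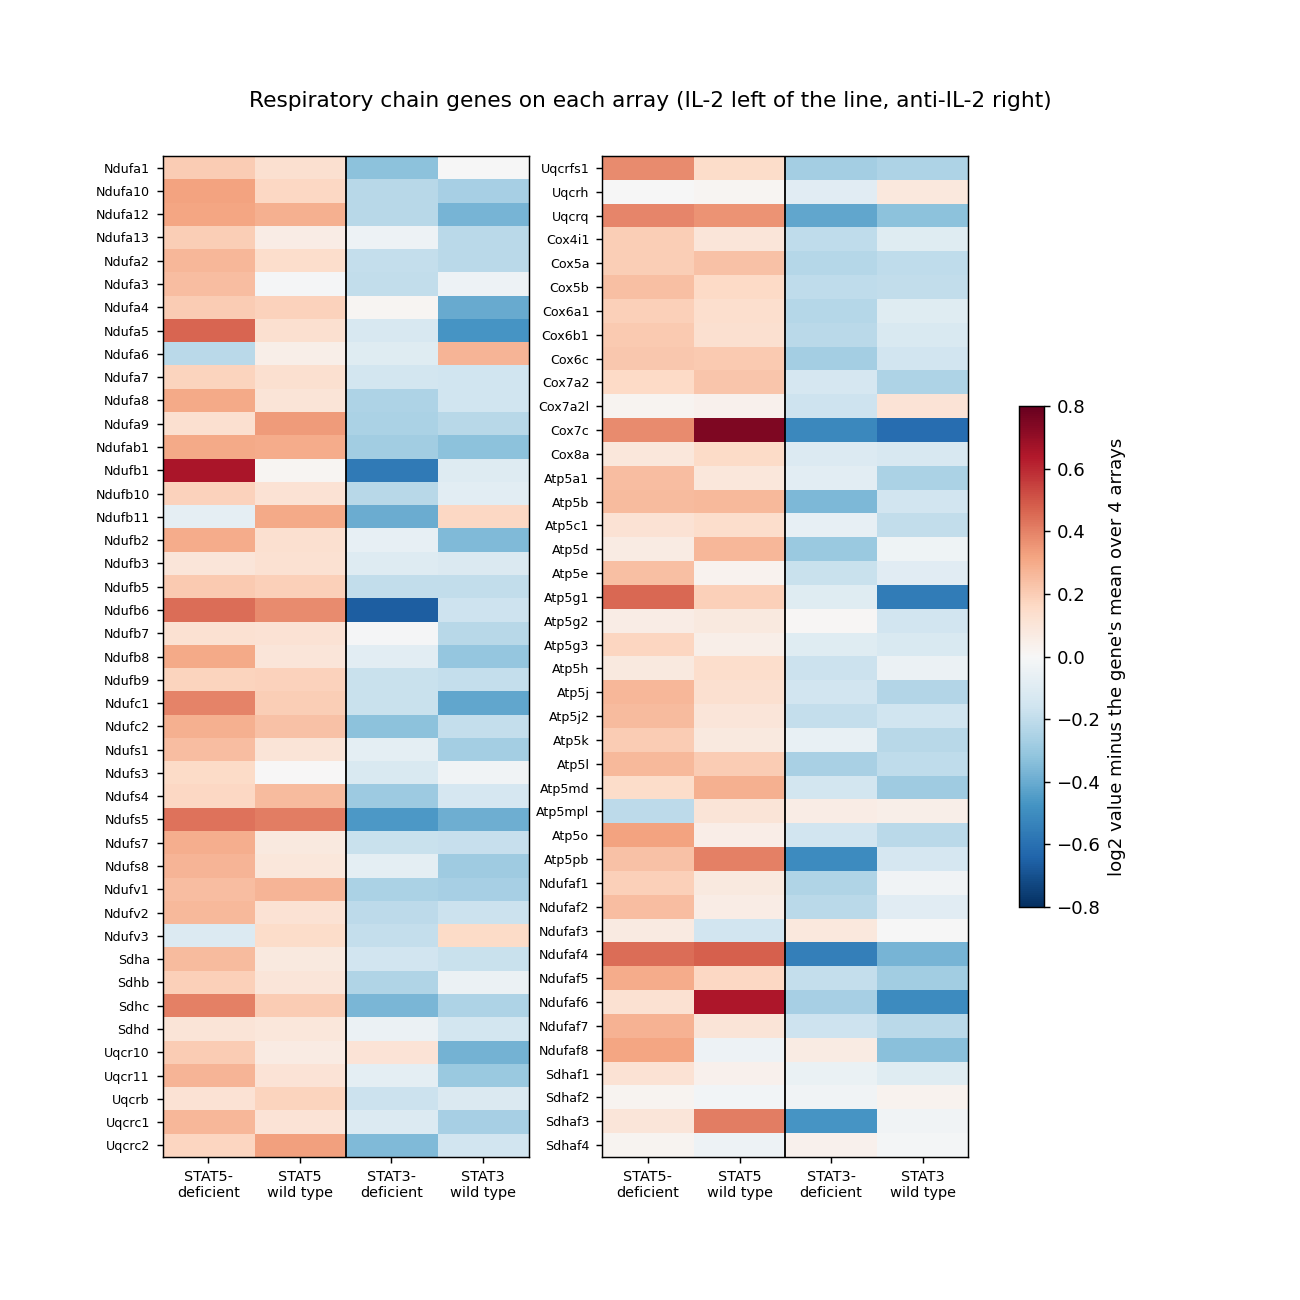
Heat map of each member's value on each array (columns, STAT5-deficient, STAT5 wild type, STAT3-deficient and STAT3 wild type) as log2 difference from the member's own mean over the 4 arrays, with members other than the tissue-restricted isoforms as rows grouped by class. Most members are red (above their mean) left of the line, in the IL-2 cultures, and blue right of it, and Ndufb11, Ndufa6 and Atp5mpl are among the exceptions.

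Both IL-2 arrays, STAT5-deficient and STAT5 wild type, lay above both anti-IL-2 arrays for 74 of 92 members (80.4%), against 39.7% of all genes and 63.7% of the top 25%. The reverse held for 1 member, the testis isoform Cox6b2, beside 11% of all genes. By class, the count was 31 of 35 in complex I, 4 of 4 in complex II, 6 of 8 in complex III, 9 of 16 in complex IV, 16 of 17 in complex V and 8 of 12 assembly factors. The low share in complex IV depended on the scaling. With each array centred on its median the count there was 13 of 16. The 1 member in reverse was then Ndufa4l2, a dim restricted isoform grouped here with complex I. Both arrays of the STAT5 pair took part in this separation, and floxed locus, IL-2 condition and pair of cultures cannot be told apart in it. Its dependence on STAT5 was not tested. Without centring, the other 18 members were the 7 restricted isoforms named above and Atp5mpl, Cox7a2l, Ndufa6, Ndufaf3, Ndufaf8, Ndufb11, Ndufv3, Sdhaf2, Sdhaf4, Uqcr10 and Uqcrh.

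Complex I had a median of 0.38 between the wild-type cultures. Ndufs5, an accessory subunit with an NRF1 match in its window, read 11.21 in STAT5-deficient cells and 11.19 in STAT5 wild-type cells, against 10.32 in STAT3-deficient cells and 10.38 in STAT3 wild-type cells. The difference between the wild-type cultures was 0.80. Ndufa12, an accessory subunit, read 12.77 in STAT5-deficient cells and 12.75 in STAT5 wild-type cells, against 12.24 in STAT3-deficient cells and 12.09 in STAT3 wild-type cells. The core subunits Ndufv1, Ndufs1, Ndufs8, Ndufv2, Ndufs7 and Ndufs3 were higher in STAT5 wild-type cells by 0.54, 0.38, 0.38, 0.29, 0.26 and 0.03. Ndufa6, also accessory, went the other way, at 11.62 in STAT5-deficient cells and 11.88 in STAT5 wild-type cells, against 11.73 in STAT3-deficient cells and 12.10 in STAT3 wild-type cells. Members with an NRF1 match had a median of 0.28 (20 members), against 0.31 without (56).

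Assembly factors of complex I spanned a wide range. Ndufaf6 read 9.13 in STAT5-deficient cells and 9.65 in STAT5 wild-type cells, against 8.74 in STAT3-deficient cells and 8.50 in STAT3 wild-type cells, a difference of 1.15 between the wild-type cultures. Ndufaf4, which works at an early step of assembly, read 10.57 in STAT5-deficient cells and 10.60 in STAT5 wild-type cells, against 9.58 in STAT3-deficient cells and 9.75 in STAT3 wild-type cells. Its difference was 0.85, and its second probe set gave 0.79. For both genes the IL-2 arrays lay above the anti-IL-2 arrays, while Ndufaf3, a partner of Ndufaf4, differed by -0.15.

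In complex II, Sdha, Sdhb, Sdhc and Sdhd were higher in STAT5 wild-type cells by 0.26, 0.15, 0.45 and 0.24. The second probe sets of Sdhc and Sdhd gave 0.07 and -0.29, and the other probe sets of Sdha past the filter 0.14 and, near background, -0.72, so these differences depended on the probe set. In complex III, whose median was 0.40, Uqcrq, a small subunit, read 12.46 in STAT5-deficient cells and 12.42 in STAT5 wild-type cells, against 11.65 in STAT3-deficient cells and 11.74 in STAT3 wild-type cells. Its dim probe sets gave -0.41 and -0.17 against 0.69 for the bright one. Uqcrc1, Uqcrc2 and Uqcrfs1 were higher by 0.38, 0.48 and 0.40, while Uqcrh, the hinge protein that binds cytochrome c1, differed by -0.07.

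Complex IV, with its restricted isoforms included, had a median of 0.21. Cox7c had the largest difference of any member, at 7.96 in STAT5-deficient cells and 8.32 in STAT5 wild-type cells, against 7.06 in STAT3-deficient cells and 6.97 in STAT3 wild-type cells. The difference of 1.36 between the wild-type cultures rests on a weak probe set. Its other probe set, weaker still, read 5.98 in STAT5-deficient cells and 6.39 in STAT5 wild-type cells, against 4.71 in STAT3-deficient cells and 5.76 in STAT3 wild-type cells, which gave 0.64. The ubiquitous isoforms Cox4i1, Cox5a, Cox5b, Cox6a1, Cox6b1, Cox7a2 and Cox8a were higher in STAT5 wild-type cells by 0.19, 0.44, 0.35, 0.23, 0.25, 0.47 and 0.28. None of the 7 restricted isoforms was above 0, and their median was -0.17, while 69 of 73 ubiquitous subunits were above 0 with a median of 0.35. Above 0 lay 55.3% of all genes and 77.3% of the top 25% by level, and the restricted isoforms were dim. The contrast depended on the scaling. After loess centring the 2 medians were -0.08 and 0.12, and Cox4i2, Cox7a1 and Cox8b lay above 0, at 0.01, 0.03 and 0.08. Without centring, the lowest restricted isoform was Ndufa4l2, at 6.71 in STAT5 wild-type cells, against 7.38 in STAT3 wild-type cells (difference -0.66).

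In complex V, the catalytic Atp5a1 and Atp5b were higher in STAT5 wild-type cells by 0.34 and 0.41. Atp5g1 read 11.75 in STAT5-deficient cells and 11.49 in STAT5 wild-type cells, against 11.20 in STAT3-deficient cells and 10.74 in STAT3 wild-type cells. That difference of 0.75 between the wild-type cultures was the largest of complex V (its other probe set was under the filter), and the other c-ring genes Atp5g2 and Atp5g3 gave 0.23 and 0.17. Atp5mpl, at 0.06, was the ATP synthase gene whose arrays overlapped.

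Where several probe sets of a member passed the filter, which was so for 50 members, they had the same sign in 27 without STAT3, 33 without STAT5 and 38 between the wild-type cultures. The median SD between a member's probe sets was 0.14, 0.09 and 0.13 in these comparisons, against 0.23, 0.17 and 0.21 over 5555 genes. Many member differences in the deletions were of that size.

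Other mitochondrial genes, from lists drawn up by function, mostly had medians near 0 in the deletions. Over all genes the medians were -0.20 without STAT3 and 0.065 without STAT5. Without STAT3 a list near 0 therefore stood above the median of all genes, and the regulators of mitochondrial biogenesis stood close to it. The 76 genes of the mitochondrial ribosome, which makes the chain's mitochondrially encoded subunits, had medians of 0.04 without STAT3 and 0.11 without STAT5. Mrpl33, of its large subunit, was the 1 gene of the list past 2-fold in a deletion, at 8.61 in STAT3-deficient cells, against 9.65 in STAT3 wild-type cells. The 16 enzymes of the citric acid cycle had medians of 0.08 and 0.01, with none past 2-fold, and Fh1, fumarase, was farthest at 0.90 and 0.38. The 17 genes of protein import had medians of 0.06 and 0.04, and Tomm20, a receptor of the outer membrane, was farthest at -0.56 and -0.46. For the 16 electron carriers and other ubiquinone-linked enzymes the medians were 0.21 and 0.08, and for 8 ATP synthase partners and mitochondrial membrane carriers or channels (among them Atpif1, which inhibits the synthase, and the outer membrane channels Vdac1, Vdac2 and Vdac3) -0.06 and 0.06. Without STAT3 the 29 other assembly factors stood at -0.13 and the 18 regulators of mitochondrial biogenesis at -0.27, where Polg, the mitochondrial DNA polymerase, was farthest at -0.72. Without STAT5 these stood at 0.05 and 0.08.

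Between the wild-type cultures, 5 of these lists had medians above the chain's 0.30 and 2 had medians below it. The median was 0.44 for the mitochondrial ribosome, where 74 of 76 genes lay above 0. It was 0.45 for the citric acid cycle, 0.58 for protein import, 0.43 for the electron carriers and 0.33 for the synthase partners, carriers and channels. Over all genes the median was 0.062 with 55.3% above 0, and over the top 25% by level 0.25 with 77.3% above 0. After loess centring the medians of these 5 lists were, in the same order, 0.23, 0.21, 0.42, 0.24 and 0.11. That of the chain was then 0.089. Cs, citrate synthase, named after its values were seen, read 11.95 in STAT5 wild-type cells, against 11.29 in STAT3 wild-type cells. Mrps18b, of the small ribosomal subunit, was 1.15 higher and Sco1, a copper chaperone of complex IV, 1.12 higher in STAT5 wild-type cells. Idh3a, of isocitrate dehydrogenase, was higher by 0.84 and the chaperone Hspa9 by 0.94. The other assembly factors had a median of 0.26 and the regulators of biogenesis 0.18, or 0.12 and -0.01 after loess centring. Among the regulators Pprc1, a coactivator that works with NRF1, was farthest at 0.70. The 47 cytosolic ribosomal proteins, a list added after values were seen, had a median of 0.06.

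Glycolysis genes, which make ATP in the cytosol, and genes induced by hypoxia lay below the chain in both deletions. The 15 glycolysis genes had a median of -0.43 without STAT3, -0.15 without STAT5 and 0.10 between the wild-type cultures. Slc16a3, a lactate exporter, was past 2-fold lower without STAT3 at -1.05 and Slc2a3, a glucose transporter, without STAT5 at -1.65. The 16 hypoxia-induced genes had a median of -0.60 without STAT3, with 1 of 16 above 0 against 30.7% of all genes. Without STAT5 their median was -0.51, with 0 of 16 above 0 against 59.4% of all genes. The medians over all genes were -0.20 and 0.065. Egln3, a prolyl hydroxylase, was lower in both deletions, at -1.78 and -1.92, and Hif1a, the oxygen-regulated factor itself, at -1.59 without STAT3. Bnip3, which marks mitochondria for removal, read 11.19 in STAT5-deficient cells, against 12.35 in STAT5 wild-type cells. Between the wild-type cultures the hypoxia list stood at -0.02.

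**Figure D4:**
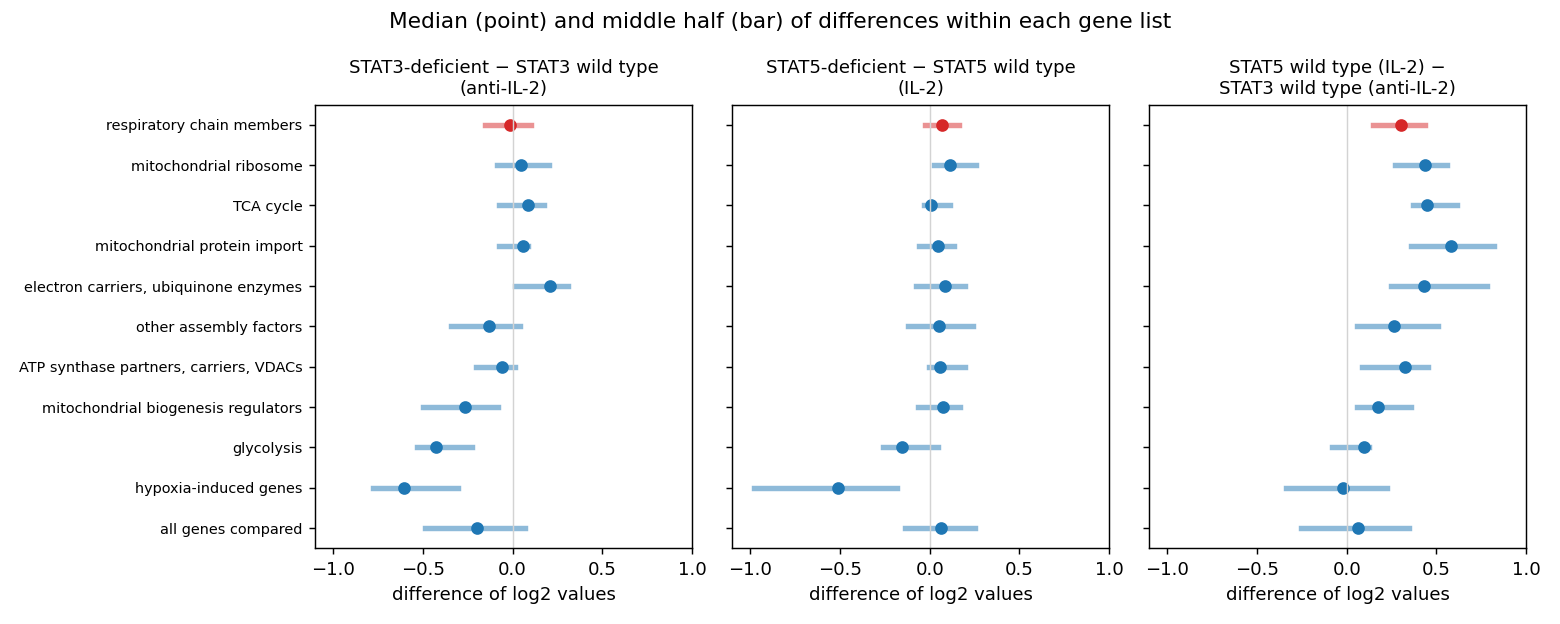
Median (point) and quartiles (bar ends) of the differences of log2 values (horizontal axis) of the respiratory chain members and of other lists of genes (rows) in the 3 comparisons, with 1 array per group. Medians of the respiratory chain members lie at -0.016, 0.068 and 0.30, while the hypoxia-induced genes lie at -0.60, -0.51 and -0.02.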

How the data were processed

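Total RNA of 4 cultures, 1 per group, was labelled with biotin and each put on its own Affymetrix mouse genome array. Per the submitters' processing notes the authors used Affymetrix Power Tools, version not given in the sources used here. Summarisation and log base are likewise unknown. From their range, the values the authors deposited were read as log2 per probe set, and another base would change every fold.

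Among 45101 probe sets, 34945 name 1 gene in the platform annotation (controls left out) and 932 several. A gene's value is that of its brightest probe set naming it alone, and symbols are those of the annotation. Its Entrez identifiers matched RefSeq (GRCm38.p6, used for names and promoters) for 99.4%. Cox7b was not analysed here, nor, as single genes, were 8 symbols that share their probe sets with other genes. Genes were kept where the highest of 4 values exceeded 6.20 (percentile 50 of all values).

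Differences are between single arrays, with no test, and counts use 2-fold, 1.5-fold and a log2 difference of 0.32. Shares over all genes and over the top 25% by mean level stand beside them. The members, lists and alternatives were chosen with earlier results of these data known. Named genes were the core subunits, the isoform families, the 5 highest and 5 lowest members of each comparison, and those past 2-fold. From each other list the rule was up to 4 genes past 2-fold or the farthest, and not all of these are named. Others were chosen after their values were seen. Alternatives were averaging all probe sets of a gene, dropping those of type x, s or a, no filter, a filter at percentile 75 (8.29), median centring, loess centring (span 0.4), the lower thresholds, and subsets of members. The number of arrays limits the precision. The code was tested on simulated data and run with Python 3.11.15, numpy 2.4.6, pandas 2.3.3, statsmodels 0.14.6 and matplotlib 3.10.9.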

Additional observations from a re-analysis of the deposited data

Results flagged for a closer look

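Ndufb1, a small complex I subunit measured by 1 probe set, differed in opposite directions in the deletions. Its difference was -0.46 for STAT3-deficient minus STAT3 wild-type cells and 0.64 for STAT5-deficient minus STAT5 wild-type cells. Each effect is 1 array against 1, and the difference between them was not tested.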

How the results depend on the processing

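No paired analysis was possible because each group has 1 array. The median of the members without STAT3 was 0.23 with arrays centred on their medians and 0.12 after loess centring, and between the wild-type cultures 0.49 and 0.089. Counts of members higher by 0.32 (log2) or more became 27, 15 and 3 without STAT3 (median centring, loess, mean of a gene's probe sets), where 24.2%, 21.3% and 9.75% of all genes were higher. Without STAT5 they became 1, 1 and 1, beside 14.2%, 14.0% and 17.2%, and between the wild-type cultures 70 and 13 (median centring, loess), beside 43.6% and 20.7%. Counts lower by that size became 3, 6 and 7 without STAT3 (median centring, loess, ubiquitous subunits only), beside 20.2%, 21.6% and 38.1%, and 6 and 7 without STAT5 (median centring, loess), beside 16% and 16.2%. Between the wild-type cultures they became 0 with the filter at percentile 75, 3 by loess and 4 with the mean of probe sets. They became 2 with no filter, 0 over ubiquitous subunits and 4 without probe sets of type x, s or a. Of all genes 21% were lower there before such changes, 11.5% with that filter and 19.9% by loess. Without STAT3, members past the threshold in either direction numbered 17 at 0.32 or more and 3 at 1.5-fold. With probe sets of type x, s or a left out, 1 passed 2-fold. Of 12439 genes 11.1% were higher and 38.1% lower at 0.32 or more, 5.66% and 19.2% at 1.5-fold, and 2.85% and 7.24% at 2-fold. Without STAT5 members numbered 6 at 0.32 or more and 1 at 1.5-fold. Of all genes 18.7% were higher and 12.9% lower at 0.32 or more, and 6.43% and 5.18% at 1.5-fold. Between the wild-type cultures members numbered 45 at 0.32 or more and 12 at 1.5-fold. Of all genes 26.8% were higher and 21% lower at 0.32 or more, 10.8% and 9.97% at 1.5-fold, and 2.35% and 2.95% at 2-fold. At 2-fold there, the member count was 1 with the mean of probe sets and 1 over subunits only. It was 1 over ubiquitous subunits and 1 without probe sets of type x, s or a. The ubiquitous subunits were a subset added after seeing the data. Lower thresholds and subsets change counts by construction, and for the other settings the cause was not tested. The other 75 medians and counts moved by less than 0.1 (medians) or by no more than 1.5 times (counts), among them the 2-fold count between the wild-type cultures, which was 3 with centred arrays. Of the values of single named members under alternatives, 607 moved by no more than the typical SD of probe sets within genes (medians 0.17 to 0.23) and 85 by more. The count of members with both IL-2 arrays above both anti-IL-2 arrays ran from 66 over the 73 ubiquitous subunits to 77 of 92 with centred arrays. Values near 6.20 have little signal over background, which limits the tissue-restricted isoforms and Cox7c. Of these isoforms Cox8c, at 8.15 to 8.67, stood farther above it.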

Other observations

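Some rule symbols share their probe sets with other genes and so were described apart from the members. A probe set of Ndufs6 and Ndufs6b, an accessory subunit of complex I and its copy, read 11.27 in STAT5-deficient cells and 11.15 in STAT5 wild-type cells, against 10.97 in STAT3-deficient cells and 10.64 in STAT3 wild-type cells. One of Ndufa11 and Ndufa11b read 11.35 and 11.22 in these IL-2 cultures, against 10.99 and 10.94 in the anti-IL-2 cultures. The brighter of those for Ndufb4, Ndufb4b and Ndufb4c read 11.44 and 11.45, against 11.07 and 11.04. For each of these probe sets both IL-2 arrays stood above both anti-IL-2 arrays, as for 39.7% of all genes, and the signals of the copies cannot be told apart. The dimmer probe set of Ndufb4 and its copies did so too, at 10.71 and 10.67 against 10.46 and 10.18. That of Ndufa11 and Ndufa11b, near background, did not, at 6.48 and 6.21 against 6.76 and 6.39.

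ND5, a complex I subunit encoded in the mitochondrial genome, had 1 probe set. It read 12.94 in STAT3-deficient cells, against 13.21 in STAT3 wild-type cells. The STAT5-deficient value was 13.44, against 13.17 in STAT5 wild-type cells. Its differences were thus -0.27 and 0.27 in the deletions and -0.04 between the wild-type cultures, where most nuclear subunits lay above 0.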
